A study of Mus musculus with 12 samples.

Results

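The genes described here are 42 NRF2 targets and glutathione transferases: 22 redox and NADPH genes, 4 regulators of the pathway and 16 glutathione transferases. They were picked by symbol, as known members of the pathway or family, with earlier results of these data known, and each gene was read from the brightest of the probe sets that the array platform assigns to it alone (the highest mean over 12 arrays). Of the 42 genes, 38 could be tested among 13598 genes on the array, namely 18 redox and NADPH genes, all 4 regulators and all 16 transferases. Expression was measured in liver of 12 male mice aged 6 to 12 weeks, 1 array per mouse and 3 mice per group, at zeitgeber time 14 (14 h after lights on) under 12 h of light and 12 h of dark. The 4 groups were untreated wild-type mice, and wild-type, PPARalpha-null and Clk/Clk mutant mice that ate a diet with 0.5% bezafibrate for 5 days. Bezafibrate is a fibrate, a lipid-lowering drug that activates the nuclear receptor PPARalpha, and Clk/Clk mice carry a dominant-negative mutation of the clock gene Clock on both copies. Wild-type and Clk/Clk mice had the Jcl:ICR background, whereas the null line came from a cross of 129S4SvJae-PPARalphatm1Gonz/J with Jcl:ICR, so strain background and loss of PPARalpha cannot be told apart. Both mutants were measured on bezafibrate only, so a mutant's basal level and its response to the drug cannot be told apart either.

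NRF2 (gene Nfe2l2) is a transcription factor that is held in the cytoplasm and marked for degradation by Keap1. When oxidants or electrophiles modify Keap1, NRF2 enters the nucleus, pairs with a small MAF protein such as MafF or MafG, and binds antioxidant response elements near its target genes. The targets make glutathione and NADPH, reduce quinones, carbonyls and peroxides, and conjugate reactive compounds. Glutathione transferases attach glutathione to electrophiles and are abundant in liver, where many of them also respond to other nuclear receptors. Fibrates raise peroxisomal oxidation in rodent liver, a process that releases hydrogen peroxide.

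All values are log2 expression levels, and a difference of 1 on this scale is a doubling. A call required a limma Benjamini-Hochberg adjusted p under 0.05 over all 13598 genes and a change of 1.5-fold or more, and "rose" and "fell" are used for called genes only. Across probe sets, which are not independent, arrays of the same group had correlations of 0.993 to 0.996 and arrays of different groups 0.969 to 0.990. Ppara transcript signal was lower in treated null than in treated wild-type mice (-0.90, adjusted p = 5.74e-04) and Clock signal was higher in treated Clk/Clk mice (1.08, adjusted p = 8.26e-04). Neither value checks a genotype, because it is not known where the probes lie relative to the altered sequence. The summed level of 8 tested hepatocyte markers of 10 listed ran from 17.19 to 17.22 in untreated wild type, 16.96 to 17.01 in treated wild type, 17.11 to 17.15 in null and 17.09 to 17.10 in Clk/Clk mice. This sum was lower in all treated than in all untreated mice. The 4 tested cholangiocyte markers of 8 listed summed to 7.69 to 7.75 in untreated wild type, 9.58 to 9.88 in treated wild type, 7.86 to 7.97 in null and 9.63 to 10.28 in Clk/Clk mice. Among the 4, Krt23 rose by 4.09 and Sox9 by 0.82 (adjusted p = 0.00177) with the drug in wild type, and both were lower in null than in treated wild-type mice. The biliary keratin Krt19 differed by -0.01 with the drug (adjusted p = 0.968), and Epcam by -0.31, which was not called. The sum mostly followed Krt23, which read 5.05 to 5.36 in untreated and 9.07 to 9.54 in treated wild type. All 8 macrophage markers were tested and summed to 12.36 to 12.52, 12.46 to 13.07, 12.55 to 12.65 and 11.91 to 12.21 in the same order of groups. The 8 stellate cell markers summed to 13.01 to 13.14 untreated and, in the 3 treated groups, to 12.58 to 12.66, 12.50 to 12.70 and 12.54 to 12.55, and the 8 sinusoidal endothelial markers to 12.30 to 12.44 untreated and to 11.58 to 12.06, 11.93 to 12.08 and 11.86 to 12.05, so that both sums were lower in all treated than in all untreated mice. With the drug in wild type, 2 of 8 stellate, 3 of 8 endothelial and 3 of 8 tested hepatocyte markers fell and none rose, beside 7.77% of all genes called lower. The median difference was 0.13 over the stellate, -0.22 over the endothelial and -0.29 over the hepatocyte markers. Stellate differences ran from -0.99 to 0.31, so the lower sum was not shared by most stellate markers, because a sum follows its brightest genes. The 5 tested neutrophil and blood markers of 8 listed summed to 8.75 to 9.16, 9.12 to 10.43, 9.32 to 10.16 and 9.0 to 9.27. The part of these markers in the results below was not tested, and in whole liver fewer cells of a type and less RNA per cell cannot be told apart.

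In wild-type liver the redox and NADPH genes rose with bezafibrate as a majority, while the transferases divided. Of the 18 tested redox and NADPH genes 12 rose and 1 fell, of the 4 regulators 2 rose, and of the 16 transferases 6 rose and 1 fell. Over the 38 tested genes this gave 20 rises and 2 falls, beside a background of 12.8% of all genes called higher and 7.77% called lower. The median difference was 1.01 over the redox and NADPH genes, 0.62 over the regulators, 0.17 over the transferases and 0.01 over all genes. The separation between redox genes and transferases was not tested. Among single genes the differences ran from -1.09 for Gsta4 to 4.61 for Cbr3.

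**Figure D1:**
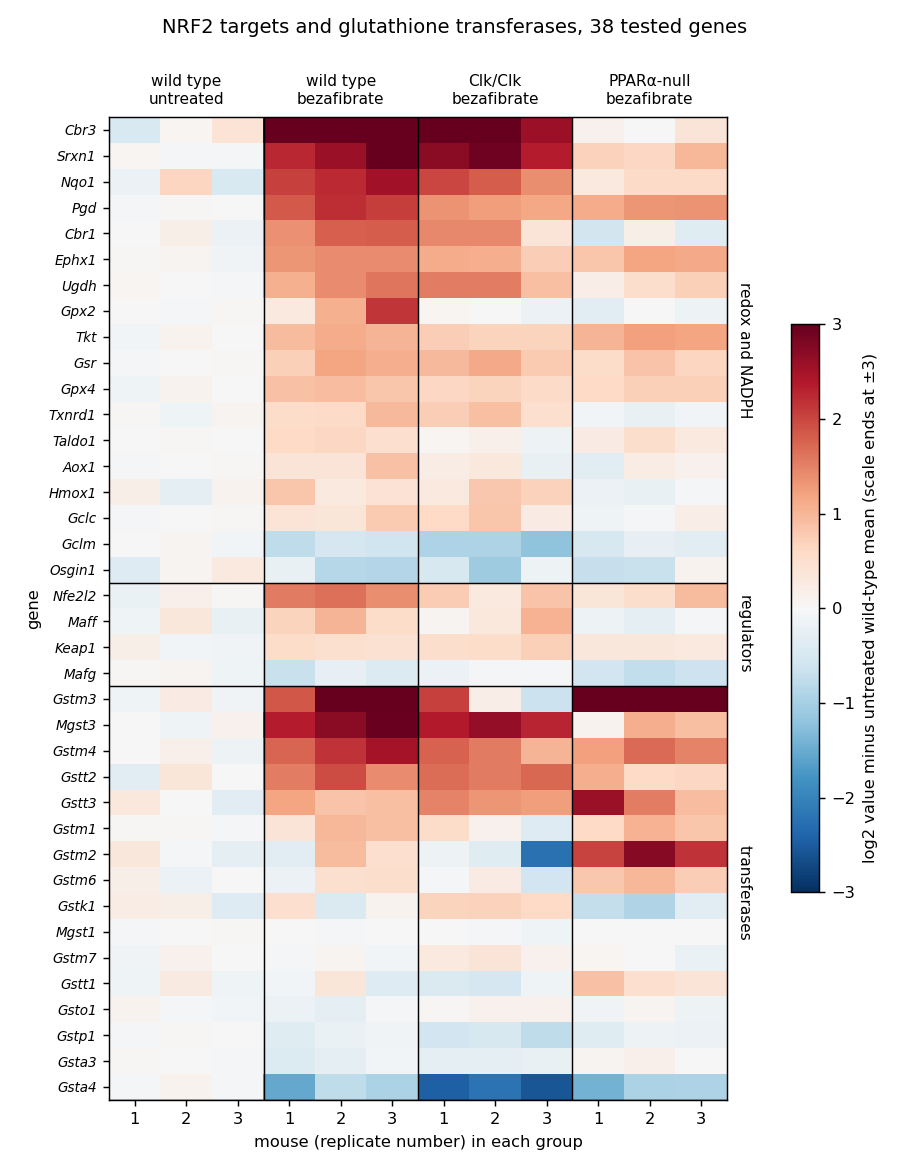
Log2 value of each of the 38 tested genes (rows, by role and by size of the wild-type drug difference) in each of 12 mice (columns, by group), minus the gene's mean in untreated wild type; red is higher, blue is lower, and the colour scale ends at 3 in both directions. The upper rows of the redox and NADPH block are red in treated wild-type and Clk/Clk mice and paler in null mice, whereas the mu-class transferase Gstm2 is reddest in null mice. Gstm3 passes the end of the colour scale in all null mice and in treated wild-type mice 2 and 3, which cannot be told apart by colour.

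The carbonyl and quinone reductases held the largest rise. Cbr3, a carbonyl reductase that uses NADPH to reduce ketones and quinones, read 5.33, 5.85 and 6.22 in untreated wild-type mice, 9.46, 10.82 and 10.96 in treated wild type, 5.92, 5.82 and 6.20 in treated null mice and 10.63, 10.63 and 8.36 in treated Clk/Clk mice. Null mice lay within the untreated range in 3 of 3 animals, and Clk/Clk mouse 3 stood below the other two but above every untreated and null mouse. Cbr3 rose by 4.61 with the drug in wild type (SE 0.559, 24.5-fold, adjusted p = 4.46e-05) and was lower in null than in treated wild type (-4.43, 21.6-fold lower, adjusted p = 1.13e-04). The difference between null mice and untreated wild type was 0.18 (adjusted p = 0.858), and that between Clk/Clk and treated wild type was -0.54 (adjusted p = 0.514). Cbr1, the neighbouring carbonyl reductase gene on chromosome 16 with no protein-coding gene between them, read 10.36, 10.53 and 10.19 untreated, 11.74, 12.16 and 12.19 in treated wild type, 9.82, 10.54 and 9.99 in null and 11.79, 11.81 and 10.75 in Clk/Clk mice. The same Clk/Clk mouse was again the lowest of its group, and null and untreated mice overlapped. Cbr1 rose by 1.67 (SE 0.271, 3.18-fold, adjusted p = 3.72e-04) and was lower in null mice (-1.91, adjusted p = 2.58e-04).

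Nqo1, the quinone reductase most often used to read NRF2 activity, had levels of 6.11, 6.91 and 5.82 in untreated wild type, 8.34, 8.52 and 8.80 in treated wild type, 6.56, 6.85 and 6.84 in null and 8.27, 8.09 and 7.67 in Clk/Clk mice. All treated wild-type mice were above all mice of the other 3 groups, and Clk/Clk mice lay above all null and untreated mice. Nqo1 rose by 2.27 (SE 0.248, 4.84-fold, adjusted p = 2.05e-05) and was lower in null mice (-1.80, 3.49-fold, adjusted p = 2.12e-04). Its difference of -0.54 in Clk/Clk mice was not called (adjusted p = 0.134). Null mice overlapped the untreated mice, and their difference of 0.47 was not called (adjusted p = 0.204). Without untreated mouse 2 that difference was 0.79 and was called (adjusted p = 0.0189). Hmox1, the heme oxygenase, moved less, at 7.03, 6.57 and 6.95 untreated, 7.67, 7.14 and 7.29 in treated wild type, 6.68, 6.63 and 6.81 in null and 7.15, 7.65 and 7.55 in Clk/Clk mice. Treated wild-type mice were above untreated mice without overlap, yet the difference of 0.52 was under the 1.5-fold limit (adjusted p = 0.0232) and passed it without treated wild-type mouse 2 (0.63) or untreated mouse 1 (0.61). In null mice Hmox1 was lower than in treated wild type (-0.66, adjusted p = 0.0102). Without treated wild-type mouse 1 that difference was -0.51, which is under 1.5-fold.

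**Figure D2:**
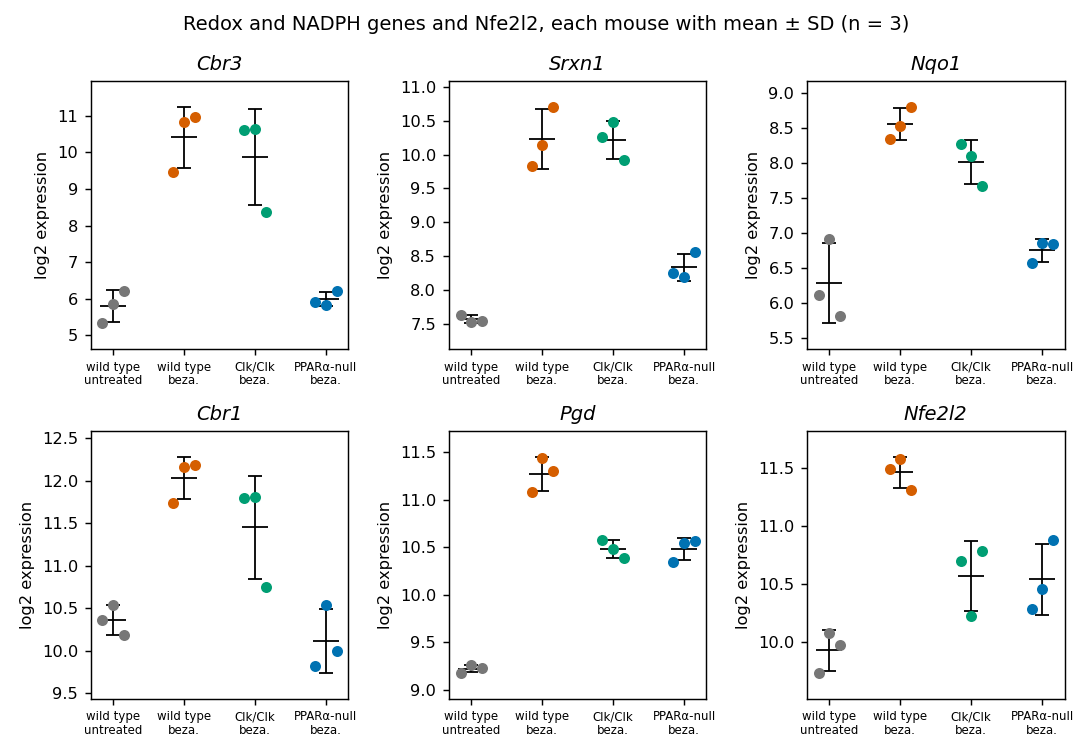
Log2 expression of Cbr3, Srxn1, Nqo1, Cbr1, Pgd and Nfe2l2 (one panel each, vertical axis in log2 units with its own range) in each mouse of the 4 groups; coloured points are mice, and black bars give the group mean and SD (n = 3). Treated wild-type mice are above untreated mice in every panel, null mice overlap the untreated mice for Cbr3, Nqo1 and Cbr1, and Pgd and Nfe2l2 sit at intermediate levels in both mutants.

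Among genes of the thioredoxin and glutathione cycles, Srxn1 responded most. Srxn1, sulfiredoxin, which restores overoxidised peroxiredoxins, read 7.63, 7.53 and 7.54 in untreated wild type, 9.83, 10.15 and 10.70 in treated wild type, 8.25, 8.19 and 8.56 in null and 10.26, 10.48 and 9.92 in Clk/Clk mice. Null mice formed a level of their own between the untreated and the other treated mice, and Clk/Clk mice overlapped treated wild type. Srxn1 rose by 2.66 (SE 0.2, 6.33-fold, adjusted p = 1.21e-06), was lower in null than in treated wild type (-1.90, adjusted p = 3.18e-05), and stood 0.76 above untreated wild type in null mice (adjusted p = 0.0195). That last call did not hold without untreated mouse 2 (0.74, adjusted p = 0.0546) or mouse 3 (0.75, adjusted p = 0.0551) or null mouse 3 (0.65, adjusted p = 0.0773). The same call was lost with the probe sets averaged (0.44, adjusted p = 0.0958). It was also lost with only probe sets without a letter suffix in their names (0.51, adjusted p = 0.171). Of the 4 probe sets of Srxn1, 1 barely moved with the drug (0.09), while the rest moved by 1.81 to 2.66. Txnrd1, thioredoxin reductase, read 10.04, 9.88 and 10.09 untreated, 10.56, 10.57 and 10.98 in treated wild type, 9.91, 9.79 and 9.92 in null and 10.74, 10.90 and 10.51 in Clk/Clk mice. Null mice overlapped the untreated mice, and both lay below all treated wild-type and Clk/Clk mice. Txnrd1 rose by 0.70 (adjusted p = 8.26e-04) and was lower in null mice (-0.83, adjusted p = 4.49e-04), but the rise was not called when its 3 probe sets were averaged (0.37, adjusted p = 0.066) or without treated wild-type mouse 3 (0.56, under 1.5-fold).

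Glutathione reductase Gsr, which regenerates glutathione with NADPH, read 9.26, 9.28 and 9.34 untreated, 10.00, 10.48 and 10.38 in treated wild type, 9.83, 10.14 and 9.94 in null and 10.27, 10.43 and 10.07 in Clk/Clk mice. All 3 treated groups were above the untreated mice and overlapped each other. Gsr rose by 0.99 in wild type (adjusted p = 8.41e-05) and stood 0.68 above untreated wild type in null mice (adjusted p = 0.00435). The 2 subunits of glutamate-cysteine ligase, which starts glutathione synthesis, went apart. The catalytic subunit Gclc ran from 11.90 to 11.99 in untreated and from 12.32 to 12.73 in treated wild type, a difference of 0.51 that was under 1.5-fold (adjusted p = 0.0156) and was called without treated wild-type mouse 2 (0.59). The modifier subunit Gclm read 12.17, 12.25 and 12.10 untreated, 11.42, 11.68 and 11.59 in treated wild type, 11.70, 11.92 and 11.86 in null and 11.25, 11.26 and 10.96 in Clk/Clk mice. The 4 groups did not overlap, with Clk/Clk mice lowest. Gclm fell by 0.61 with the drug (1.53-fold, adjusted p = 4.42e-04), a fold that dropped under 1.5 without treated wild-type mouse 1 (-0.54) or untreated mouse 2 (-0.57), and it stood lower in Clk/Clk than in untreated wild-type mice (-1.02, adjusted p = 1.01e-05).

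Both glutathione peroxidases of the group rose. Gpx4, which reduces lipid hydroperoxides in membranes, read 12.28, 12.51 and 12.42 untreated, 13.28, 13.32 and 13.24 in treated wild type, 12.99, 13.12 and 13.12 in null and 13.02, 13.07 and 12.97 in Clk/Clk mice. All treated mice were above all untreated mice. Gpx4 rose by 0.88 in wild type (adjusted p = 2.92e-06) and stood above untreated wild type by 0.68 in null mice (adjusted p = 1.47e-04) and by 0.62 in Clk/Clk mice (adjusted p = 3.85e-05), the last under 1.5-fold without untreated mouse 1 (0.56). Gpx2, a cytosolic peroxidase better known from the gut epithelium, read 6.02, 5.99 and 6.07 untreated, 6.32, 7.09 and 8.17 in treated wild type, 5.69, 6.03 and 5.87 in null and 6.08, 6.03 and 5.84 in Clk/Clk mice. The 3 treated wild-type mice differed widely among themselves, and the other 9 mice lay at or below 6.08. Gpx2 rose by 1.16 (SE 0.332, adjusted p = 0.0128) and was lower in null (-1.33, adjusted p = 0.00958) and in Clk/Clk mice (-1.21, adjusted p = 0.0215) than in treated wild type. None of these 3 calls held in a fit of the 2 groups compared alone (adjusted p = 0.0574, 0.0514 and 0.0844), and the Clk/Clk call was also lost without Clk/Clk mouse 2 (adjusted p = 0.0531) or mouse 3 (-1.14, adjusted p = 0.0672).

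Of the pentose phosphate genes, whose pathway supplies NADPH, Pgd and Tkt rose in wild type and were above the untreated level in both mutants. Pgd, the phosphogluconate dehydrogenase that makes NADPH, read 9.18, 9.26 and 9.23 untreated, 11.08, 11.44 and 11.30 in treated wild type, 10.35, 10.54 and 10.56 in null and 10.57, 10.48 and 10.39 in Clk/Clk mice. The mutants overlapped each other at a level between untreated and treated wild type, with no overlap with either. Pgd rose by 2.04 (SE 0.097, 4.12-fold, adjusted p = 4.64e-08) and was lower than treated wild type in null mice (-0.79, adjusted p = 9.85e-05) and in Clk/Clk mice (-0.79, adjusted p = 3.23e-04). Its 4 probe sets gave drug differences of 1.92 to 2.30. Tkt, transketolase, read 11.59, 11.76 and 11.64 untreated, 12.62, 12.78 and 12.69 in treated wild type, 12.69, 12.90 and 12.85 in null and 12.40, 12.33 and 12.34 in Clk/Clk mice. Null mice overlapped treated wild type, and Clk/Clk mice lay below both. Tkt rose by 1.03 in wild type (adjusted p = 1.08e-06) and stood 1.15 above untreated in null mice (adjusted p = 5.21e-06), while its Clk/Clk difference of -0.34 from treated wild type was under 1.5-fold (adjusted p = 0.00785). Taldo1, transaldolase, differed by 0.58 with the drug (1.49-fold, adjusted p = 3.68e-04) and by -0.56 in Clk/Clk mice (1.47-fold, adjusted p = 0.0017), both just under the fold limit, the former called without treated wild-type mouse 3 (0.62) or untreated mouse 2 (0.59) and the latter without Clk/Clk mouse 2 (-0.62) or treated wild-type mouse 3 (-0.60).

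Ephx1 and Ugdh serve detoxification. Ephx1, the microsomal epoxide hydrolase, read 12.16, 12.21 and 12.01 untreated, 13.46, 13.54 and 13.55 in treated wild type, 12.97, 13.30 and 13.26 in null and 13.23, 13.22 and 12.87 in Clk/Clk mice. It rose by 1.38 (adjusted p = 2.48e-06), and all mutants remained above all untreated mice, by 1.05 in null (adjusted p = 1.47e-04) and by 0.98 in Clk/Clk animals (adjusted p = 3.40e-05). Ugdh, which makes UDP-glucuronate for glucuronidation, read 11.20, 11.13 and 11.12 untreated, 12.21, 12.56 and 12.76 in treated wild type, 11.34, 11.67 and 11.88 in null and 12.68, 12.69 and 12.06 in Clk/Clk mice. Clk/Clk mice overlapped treated wild type, and null mice lay between them and the untreated mice. Ugdh rose by 1.36 (adjusted p = 1.24e-04) and was lower in null mice (-0.88, adjusted p = 0.00413). Aox1, aldehyde oxidase, ran from 10.03 to 11.25 over all mice and differed by 0.54 with the drug (adjusted p = 0.0276, under 1.5-fold; 0.62 and called without treated wild-type mouse 1 or 2). Osgin1, an oxidative stress-induced growth inhibitor, ran from 8.74 to 10.09 and differed by -0.65 (adjusted p = 0.0787), which was called without treated wild-type mouse 1 (-0.86, adjusted p = 0.0379) or untreated mouse 1 (-0.84, adjusted p = 0.0467). The remaining 4 redox genes were not tested: Slc7a11, the cystine transporter, read 3.13 to 3.66 in all mice, below the filter level of 4.87 to 4.92, Prdx1 was represented only by 5 probe sets shared with Gm21399, with group means of 11.91 to 14.05, and G6pdx and Prdx6 were not analysed here because no probe set carried their symbol alone.

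The transcript of NRF2 itself rose. Nfe2l2 read 9.74, 10.08 and 9.97 untreated, 11.49, 11.58 and 11.32 in treated wild type, 10.29, 10.46 and 10.88 in null and 10.70, 10.23 and 10.79 in Clk/Clk mice. Every treated wild-type mouse was above every mutant, and every mutant was above every untreated mouse. Nfe2l2 rose by 1.53 (SE 0.174, 2.90-fold, adjusted p = 2.77e-05) and was lower than treated wild type in null mice (-0.92, adjusted p = 0.00188) and in Clk/Clk mice (-0.89, adjusted p = 0.00397). Its dimmer probe set gave 1.07, -0.76 and 0.01 for the same 3 differences, and with both averaged the Clk/Clk call was lost (-0.44, adjusted p = 0.0587). Maff, a small MAF partner, read 6.25, 6.72 and 6.15 untreated, 7.05, 7.38 and 6.91 in treated wild type, 6.23, 6.09 and 6.32 in null and 6.45, 6.68 and 7.42 in Clk/Clk mice. Clk/Clk mice spread across the untreated and treated ranges. Maff rose by 0.74 (adjusted p = 0.0189) and was lower in null mice (-0.90, adjusted p = 0.0105), and the rise was not called without untreated mouse 1 (0.68, adjusted p = 0.0589), untreated mouse 3 (0.63, adjusted p = 0.0717) or treated mouse 2 (0.61, adjusted p = 0.0711). Keap1, the inhibitor, differed by 0.50 with the drug (1.42-fold, adjusted p = 4.64e-04), and Mafg by -0.44 (1.36-fold, adjusted p = 0.00425), neither reaching 1.5-fold. Keap1 passed without untreated mouse 1 (0.59), and Mafg passed when its 2 probe sets were averaged (-0.69, adjusted p = 9.79e-05).

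Promoter sequence was read from RefSeq (GRCm38.p6), from 250 bases before to 50 after each annotated gene start, for 36 of the 42 genes. Hmox1, Gclc, Gsr, Prdx6, Gsta4 and Gstt2 were not matched. The core of the antioxidant response element was searched as TGACNNNGC on both strands and was found in 13 of 36 genes (36.1%), beside 14% of 27025 genes with a window. Some genes have several windows, and a gene was counted when any of its windows held the letters searched. Counted by window, the core was in 13 of 51 windows of these genes, beside 12.4% of all 32851 windows. It was held by 7 of 18 redox and NADPH genes, 3 of 4 regulators and 3 of 14 transferases. The direct repeat that PPARalpha and RXR bind, searched as a pair of AGGNCA with 1 base between, was in 0 of 36 genes, beside 0.451% of all genes. The E-box that CLOCK and BMAL1 bind, CACGTG, was in 2 of 36 (Maff and Mafg), beside 8.09% of all genes. The cores of the measured genes are given here because they are the stretches behind these counts; no test was made of the difference between the classes. Each line is written 5′ to 3′ on the strand that carries the core, with the core in capitals and the searched window named before it.
Srxn1, chr2:152105274-152105573, strand opposite to the gene: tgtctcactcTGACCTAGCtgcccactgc
Txnrd1, chr10:82858956-82859255, strand opposite to the gene: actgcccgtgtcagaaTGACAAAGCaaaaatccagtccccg
Pgd, chr4:149166033-149166332, strand of the gene: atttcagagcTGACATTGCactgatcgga
Ugdh, chr5:65435793-65436092, strand of the gene: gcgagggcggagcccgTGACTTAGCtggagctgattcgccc
Ugdh, chr5:65435793-65436092, strand opposite to the gene: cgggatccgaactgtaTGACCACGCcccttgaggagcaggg
Gclm, chr3:122245307-122245606, strand opposite to the gene: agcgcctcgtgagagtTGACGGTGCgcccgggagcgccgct
Nfe2l2, chr2:75704614-75704913, strand of the gene: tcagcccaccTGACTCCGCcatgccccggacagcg
Maff, chr15:79346371-79346670, strand of the gene: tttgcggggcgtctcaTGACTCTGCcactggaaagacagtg
Mafg, chr11:120633498-120633797, strand opposite to the gene: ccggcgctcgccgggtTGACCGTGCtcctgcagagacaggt
Gsta3, chr1:21240335-21240634, strand of the gene: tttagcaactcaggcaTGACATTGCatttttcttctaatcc
Gstm7, chr3:107931565-107931864, strand of the gene: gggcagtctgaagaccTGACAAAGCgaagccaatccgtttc
Mgst1, chr6:138140277-138140576, strand opposite to the gene: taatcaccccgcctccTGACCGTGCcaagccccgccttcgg

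The 2 promoters at the ends of this comparison are Ugdh, the gene in which 2 cores were found, and Cbr3, the gene with the largest rise and no core in its window. The 250 bases before their starts are given on the strand of the gene, with cores in capitals.
Ugdh, chr5:65435843-65436092: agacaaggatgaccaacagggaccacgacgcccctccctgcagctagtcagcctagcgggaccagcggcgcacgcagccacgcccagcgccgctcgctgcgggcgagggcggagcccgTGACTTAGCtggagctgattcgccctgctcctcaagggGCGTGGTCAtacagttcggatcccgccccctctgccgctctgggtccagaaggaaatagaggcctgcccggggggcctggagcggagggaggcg
Cbr3, chr16:93682969-93683218: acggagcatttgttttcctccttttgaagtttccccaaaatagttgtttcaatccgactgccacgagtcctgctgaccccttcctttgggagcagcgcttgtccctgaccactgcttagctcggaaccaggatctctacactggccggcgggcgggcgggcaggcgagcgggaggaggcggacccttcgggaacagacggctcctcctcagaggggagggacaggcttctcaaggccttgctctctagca
The second core of Ugdh lies on the opposite strand and so reads as its reverse complement here. The other 2 genes with a core, G6pdx and Prdx1, were not tested. A match is a run of letters and not a shown binding site, and elements outside these windows were not searched.

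**Figure D3:**
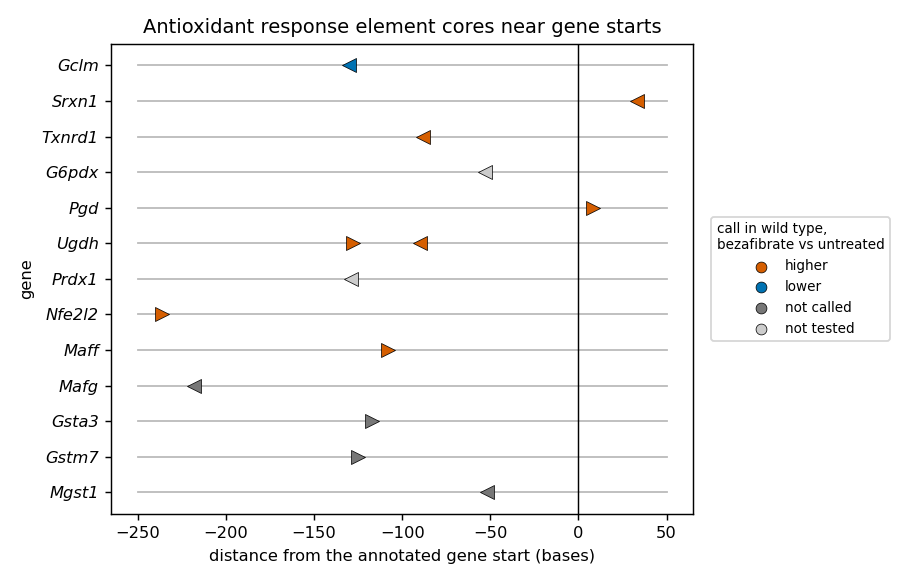
Position of each antioxidant response element core (triangles, pointing right on the strand of the gene and left on the opposite strand) from 250 bases before to 50 bases after the annotated gene start (horizontal axis, in bases) in 13 genes; the colour gives the call for bezafibrate against untreated in wild type. Of the 14 cores, 2 lie after the start, in Srxn1 and Pgd, and the 3 transferases with a core (Gsta3, Gstm7 and Mgst1) are in the colour of genes that were not called.

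The mu-class transferases Gstm7, Gstm6, Gstm3, Gstm2, Gstm1 and Gstm4 are 6 consecutive protein-coding genes on chromosome 3. Of the 6, 3 rose with bezafibrate in wild type, 5 were higher in treated null mice than in untreated wild type, and 4 were lower in Clk/Clk than in null mice, beside 12.8%, 3.96% and 7.78% of all genes. Their sequences are similar, so their probe sets may share signal. Gstm3 read 10.27, 10.63 and 10.27 untreated, 12.26, 13.75 and 13.71 in treated wild type, 13.73, 13.96 and 13.76 in null and 12.43, 10.59 and 9.75 in Clk/Clk mice. Null mice overlapped the top of the treated wild-type range, and the 3 Clk/Clk mice spread from the treated to below the untreated range. Gstm3 rose by 2.85 in wild type (SE 0.563, 7.22-fold, adjusted p = 0.00144), differed by 0.58 between null and treated wild type (adjusted p = 0.462) and stood 3.43 above untreated wild type in null mice (10.8-fold, adjusted p = 0.0018). In Clk/Clk mice it was lower than in treated wild type (-2.32, adjusted p = 0.0121) and lower than in null mice (-2.89, adjusted p = 0.00186). The former was -1.73 without Clk/Clk mouse 3 (adjusted p = 0.0434) and was not called in a fit of the 2 groups alone (adjusted p = 0.062).

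Gstm2 read 9.37, 8.99 and 8.73 untreated, 8.69, 9.99 and 9.53 in treated wild type, 11.06, 11.77 and 11.20 in null and 8.87, 8.66 and 6.80 in Clk/Clk mice. Null mice were above all other mice, and Clk/Clk mouse 3 was below all others. The drug difference in wild type was 0.37 (adjusted p = 0.557), but null mice were 1.94 above treated wild type (SE 0.486, adjusted p = 0.0097) and 2.31 above untreated wild type (adjusted p = 0.00675). Clk/Clk mice were lower than null mice (-3.23, 9.39-fold, adjusted p = 3.23e-04), and their difference of -1.29 from treated wild type was not called (adjusted p = 0.0735) and was -0.63 without Clk/Clk mouse 3 (adjusted p = 0.228). It was called without Clk/Clk mouse 1 (-1.67, adjusted p = 0.0418) or treated wild-type mouse 1 (-1.65, adjusted p = 0.0452). Gstm6 had the same order of group means in smaller steps, from 8.38 to 8.71 untreated, 8.37 to 9.07 in treated wild type, 9.28 to 9.55 in null and 7.98 to 8.78 in Clk/Clk mice. It was called only between null and untreated wild-type mice (0.85, adjusted p = 0.0158) and between Clk/Clk and null mice (-0.98, adjusted p = 0.00372), the former not without untreated mouse 2 (0.77, adjusted p = 0.0554) or null mouse 2 (0.78, adjusted p = 0.0588). Gstm7, at the end of the row, ran from 9.28 to 9.88 over all mice and was called in none of the 6 comparisons.

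**Figure D4:**
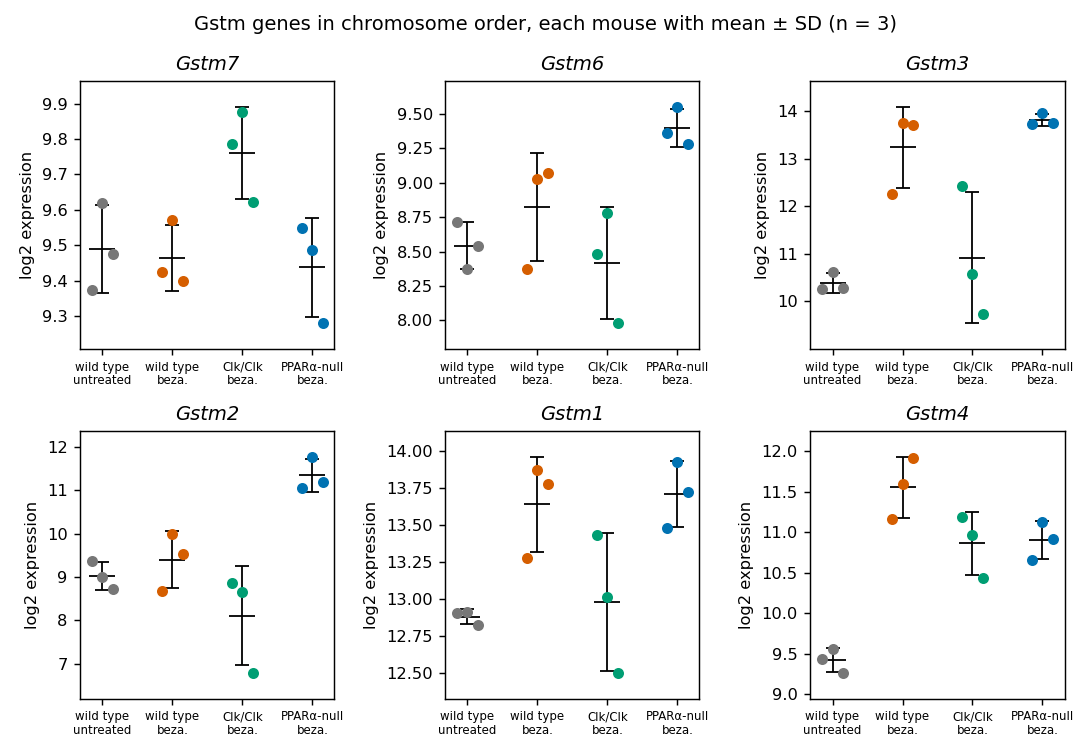
Log2 expression of the 6 Gstm genes in their order on chromosome 3 (one panel each, vertical axis in log2 units with its own range) in each mouse of the 4 groups; coloured points are mice, and black bars give the group mean and SD (n = 3). The group means of Gstm3 and Gstm2 are highest in null mice, although for Gstm3 null and treated wild-type mice overlap. Both genes are lower in Clk/Clk than in null mice, with Clk/Clk mouse 3 at 9.75 and 6.80, while Gstm7 stays between 9.28 and 9.88 in every group.

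Gstm1 read 12.90, 12.91 and 12.82 untreated, 13.27, 13.87 and 13.77 in treated wild type, 13.48, 13.93 and 13.72 in null and 13.43, 13.01 and 12.50 in Clk/Clk mice. Treated wild-type and null mice overlapped above the untreated mice, and Clk/Clk mice straddled the untreated level. Gstm1 rose by 0.76 (adjusted p = 0.0123), and its Clk/Clk difference of -0.66 from treated wild type passed narrowly (adjusted p = 0.0444). That call was lost without Clk/Clk mouse 2 (-0.67, adjusted p = 0.0926) or mouse 3 (-0.42, adjusted p = 0.154), treated wild-type mouse 2 (-0.54, adjusted p = 0.144) or mouse 3 (-0.59, adjusted p = 0.11), null mouse 3 (-0.66, adjusted p = 0.0596) or any untreated mouse (adjusted p from 0.0565 to 0.0584). Gstm4 read 9.43, 9.56 and 9.26 untreated, 11.16, 11.60 and 11.91 in treated wild type, 10.66, 11.13 and 10.91 in null and 11.19, 10.97 and 10.43 in Clk/Clk mice. Every treated mouse of any genotype was above every untreated mouse. Gstm4 rose by 2.14 (SE 0.215, 4.40-fold, adjusted p = 1.13e-05) and was lower than treated wild type in null (-0.66, adjusted p = 0.0343) and in Clk/Clk mice (-0.69, adjusted p = 0.0366). The null call did not hold without treated wild-type mouse 2 (-0.64, adjusted p = 0.0808) or mouse 3 (-0.48, adjusted p = 0.121), or without null mouse 1 (-0.54, adjusted p = 0.121) or mouse 3 (-0.66, adjusted p = 0.0743). The Clk/Clk call did not hold without treated wild-type mouse 2 (-0.67, adjusted p = 0.0899) or mouse 3 (-0.51, adjusted p = 0.116), Clk/Clk mouse 2 (-0.74, adjusted p = 0.0658) or mouse 3 (-0.48, adjusted p = 0.133), or null mouse 3 (-0.69, adjusted p = 0.0507).

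The theta-class genes Gstt3, Gstt1 and Gstt2 lie together on chromosome 10, with 1 other protein-coding gene before Gstt2, and their levels followed different orders of the groups. Gstt2 read 10.90, 11.59 and 11.22 untreated, 12.78, 13.19 and 12.65 in treated wild type, 12.32, 11.84 and 11.85 in null and 12.91, 12.79 and 12.95 in Clk/Clk mice. Clk/Clk mice lay within the treated wild-type range, and null mice lay between them and the untreated mice. Gstt2 rose by 1.63 (adjusted p = 3.11e-05) and was lower in null mice (-0.87, adjusted p = 0.00435). Gstt1 read 11.95, 12.34 and 11.95 untreated, 11.99, 12.43 and 11.69 in treated wild type, 12.96, 12.59 and 12.48 in null and 11.64, 11.58 and 11.95 in Clk/Clk mice. Null mice were the highest, by 0.64 over treated wild type (adjusted p = 0.0247), a call that was lost without null mouse 1 (0.49, adjusted p = 0.0983) or treated wild-type mouse 1 (0.61, adjusted p = 0.0634) or mouse 3 (0.46, adjusted p = 0.089). Gstt3 read 8.0, 7.69 and 7.33 untreated, 8.85, 8.54 and 8.58 in treated wild type, 10.27, 9.20 and 8.61 in null and 9.17, 8.99 and 8.93 in Clk/Clk mice. All treated mice were above all untreated mice, and the null mice spread most. Gstt3 rose by 0.98 (adjusted p = 0.0256), which was not called without untreated mouse 2 (0.99, adjusted p = 0.0563), untreated mouse 3 (0.81, adjusted p = 0.0944) or treated mouse 1 (0.88, adjusted p = 0.0763).

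Mgst3 and Gsta4 were the strongest movers among the other classes, in opposite directions. Mgst3, a microsomal transferase with peroxidase activity, read 8.81, 8.69 and 8.95 untreated, 11.17, 11.52 and 11.77 in treated wild type, 8.92, 9.91 and 9.71 in null and 11.20, 11.44 and 11.10 in Clk/Clk mice. Clk/Clk and treated wild-type mice overlapped far above null and untreated mice. Mgst3 rose by 2.67 (SE 0.226, 6.38-fold, adjusted p = 2.99e-06) and was lower in null mice (-1.97, 3.93-fold, adjusted p = 5.80e-05). Its dimmer probe set, with group means of 4.64 to 5.00 near the filter level, gave 0.29 and 0.02 for these differences. Gsta4, the alpha-class enzyme that conjugates the lipid peroxidation product hydroxynonenal, read 10.82, 10.98 and 10.82 untreated, 9.34, 10.10 and 9.91 in treated wild type, 9.46, 9.93 and 9.94 in null and 8.42, 8.65 and 8.30 in Clk/Clk mice. Null and treated wild-type mice overlapped below the untreated mice, and Clk/Clk mice were below all of them. Gsta4 fell by 1.09 with the drug in wild type (2.13-fold, adjusted p = 5.45e-04), was lower in Clk/Clk than in treated wild type (-1.33, adjusted p = 6.48e-04), and stood below untreated wild type in Clk/Clk mice (-2.42, 5.34-fold, adjusted p = 1.36e-06). In null mice it stood below untreated wild type (-1.09, adjusted p = 0.00227), with adjusted p = 0.989 against treated wild type.

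Gstk1, the kappa-class enzyme of mitochondria and peroxisomes, read 12.30, 12.25 and 11.70 untreated, 12.59, 11.64 and 12.18 in treated wild type, 11.36, 11.19 and 11.77 in null and 12.75, 12.78 and 12.69 in Clk/Clk mice. Clk/Clk mice were above all other mice, and null mice overlapped the lower end of both wild-type groups. The drug difference was 0.05 (adjusted p = 0.865), null mice were lower than treated wild type (-0.70, adjusted p = 0.0356), and Clk/Clk mice were above null mice by 1.30 (adjusted p = 0.00101). The null call rested on single mice, since it was lost without null mouse 1 (-0.66, adjusted p = 0.0963), null mouse 2 (-0.57, adjusted p = 0.121) or treated wild-type mouse 1 (-0.47, adjusted p = 0.132), among others. Gsta3, Gstp1, Gsto1 and Mgst1 were bright in all mice and were called in none of the 3 main comparisons. Gsta3, an alpha-class enzyme, ran from 12.96 to 13.53, Gstp1, the pi-class enzyme, from 13.48 to 14.26, and Gsto1, the omega-class enzyme that reduces dehydroascorbate, from 11.45 to 11.87. Mgst1, the main microsomal transferase, ran from 14.25 to 14.41, close to the top of the scale, where differences may be compressed. Gstp1 stood lower in Clk/Clk than in untreated wild-type mice (-0.60, 1.52-fold, adjusted p = 2.69e-04), a fold that was under 1.5 without Clk/Clk mouse 3 (-0.53).

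In the PPARalpha-null mice more redox and NADPH genes than transferases were below treated wild type, and the difference between the classes was not tested. Of 18 redox and NADPH genes 9 were lower and none higher, of 4 regulators 2 were lower, and of 16 transferases 4 were lower and 2 higher. Leaving out 1 mouse at a time gave 9 to 10 lower redox genes, 2 to 4 lower transferases (2 without treated wild-type mouse 3 or null mouse 1) and 1 to 3 higher transferases (1 without treated wild-type mouse 1 or null mouse 1, 3 without null mouse 3). Over the 38 genes 15 were lower and 2 higher, beside backgrounds of 8.09% lower and 5.35% higher. The 9 lower redox genes were Nqo1, Hmox1, Srxn1, Txnrd1, Pgd, Cbr1, Cbr3, Ugdh and Gpx2, and the 2 higher transferases were Gstm2 and Gstt1. The median difference was -0.60 over the redox and NADPH genes, -0.55 over the regulators, 0.03 over the transferases and 0.01 over all genes. Against untreated wild type, 6 redox and NADPH genes were higher in treated null mice (Srxn1, Gsr, Pgd, Tkt, Ephx1 and Gpx4), and 9 transferases were higher: Gstm1, Gstm2, Gstm3, Gstm4, Gstm6, Gstt1, Gstt2, Gstt3 and Mgst3. Of these 9, the calls of Mgst3 (0.70, adjusted p = 0.0464) and Gstt1 (0.60, adjusted p = 0.0467) were lost under 14 and 12 alternatives, among them no filter, and each was lost without any 1 of several single mice (lowest 0.50 without null mouse 2 and 0.45 without null mouse 1). Gstm1 lost its call without null mouse 2 (0.72, adjusted p = 0.0725), null mouse 3 (adjusted p = 0.0555) or untreated mouse 3 (adjusted p = 0.0568), and Gstt2 without null mouse 1 (0.61, adjusted p = 0.0519) or untreated mouse 1 (0.60, adjusted p = 0.0523). Nfe2l2 (0.61, adjusted p = 0.0276) lost its call without null mouse 2 or 3 (adjusted p = 0.0551 and 0.104), without untreated mouse 1 or 3 (adjusted p = 0.0913 and 0.0607), and with its probe sets averaged (adjusted p = 0.0554). With Nfe2l2 this came to 16 higher, beside 3.96% of all genes, and Gsta4 and Mafg were the 2 lower, beside 2.69%. The medians of that comparison were 0.27 for redox genes and 0.65 for transferases.

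In Clk/Clk mice the called differences from treated wild type all ran downwards. Of 38 genes 7 were lower, beside 6.49% of all genes, and 0 were higher, beside 2.64%. The 7 were Pgd and Gpx2 among 18 redox and NADPH genes, Nfe2l2 among 4 regulators, and Gsta4, Gstm1, Gstm3 and Gstm4 among 16 transferases. At an unadjusted limma p under 0.05, without the fold limit, 19 of the 38 differed in either direction, beside 37.6% of all genes. The medians were -0.37 for redox genes, -0.08 for regulators, -0.28 for transferases and 0.02 for all genes. Without Clk/Clk mouse 3, whose Cbr3, Cbr1, Gstm2 and Gstm3 levels were the lowest of its group, 4 genes were lower instead of 7 (2 transferases instead of 4 and 1 redox gene instead of 2), and the Cbr3 difference was 0.22 in place of -0.54. Against untreated wild type, 19 genes were higher in treated Clk/Clk mice, beside 10.6% of all genes, and 3 were lower (Gclm, Gsta4 and Gstp1), beside 8.82%. Those 19 were 12 redox and NADPH genes, 2 regulators (Keap1 and Nfe2l2) and 5 transferases (Gstm4, Gstt2, Gstt3, Gstk1 and Mgst3). The call of Gstk1 (0.66, adjusted p = 0.0365) was lost under 5 alternatives, among them without any 1 Clk/Clk mouse (adjusted p from 0.0678 to 0.0881). Keap1 and Nfe2l2 were each under 1.5-fold in 4 alternatives. Hmox1 and Gpx4 each lost the call under 3, and Txnrd1 with its probe sets averaged (0.37, adjusted p = 0.0692).

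The mutants were also set against each other, since this is the direct test of whether they differ. Clk/Clk mice were higher than null mice in 11 of the 38 genes, beside 7.43% of all genes, and lower in 7, beside 7.78%. The higher genes were 7 redox and NADPH genes (Nqo1, Hmox1, Srxn1, Txnrd1, Cbr1, Cbr3 and Ugdh), Maff, and the transferases Gstt2, Gstk1 and Mgst3. The lower genes were Gclm and 6 transferases (Gsta4, Gstm1, Gstm2, Gstm3, Gstm6 and Gstt1). The call of Maff (0.64, adjusted p = 0.0476) was lost under 14 alternatives, among them without any 1 null mouse (adjusted p from 0.0738 to 0.131) and without Clk/Clk mouse 3 (0.35, adjusted p = 0.173). Gclm was under 1.5-fold without Clk/Clk mouse 3 (-0.57), and Gstm1 was not called without Clk/Clk mouse 3 (-0.49, adjusted p = 0.0755), null mouse 2 (adjusted p = 0.0777) or null mouse 3 (adjusted p = 0.0515). Cbr3 was higher by 3.89 (adjusted p = 2.28e-04), Srxn1 by 1.89 (adjusted p = 2.28e-05), Mgst3 by 1.73 (adjusted p = 1.14e-04) and Nqo1 by 1.26 (adjusted p = 0.00201). For Pgd the groups overlapped, with means of 10.48 in both mutants (adjusted p = 0.978). The median difference was 0.20 over the redox and NADPH genes, -0.34 over the transferases and -0.01 over all genes. The strain background of the null line also stands between these groups, and its part was not tested.

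**Figure D5:**
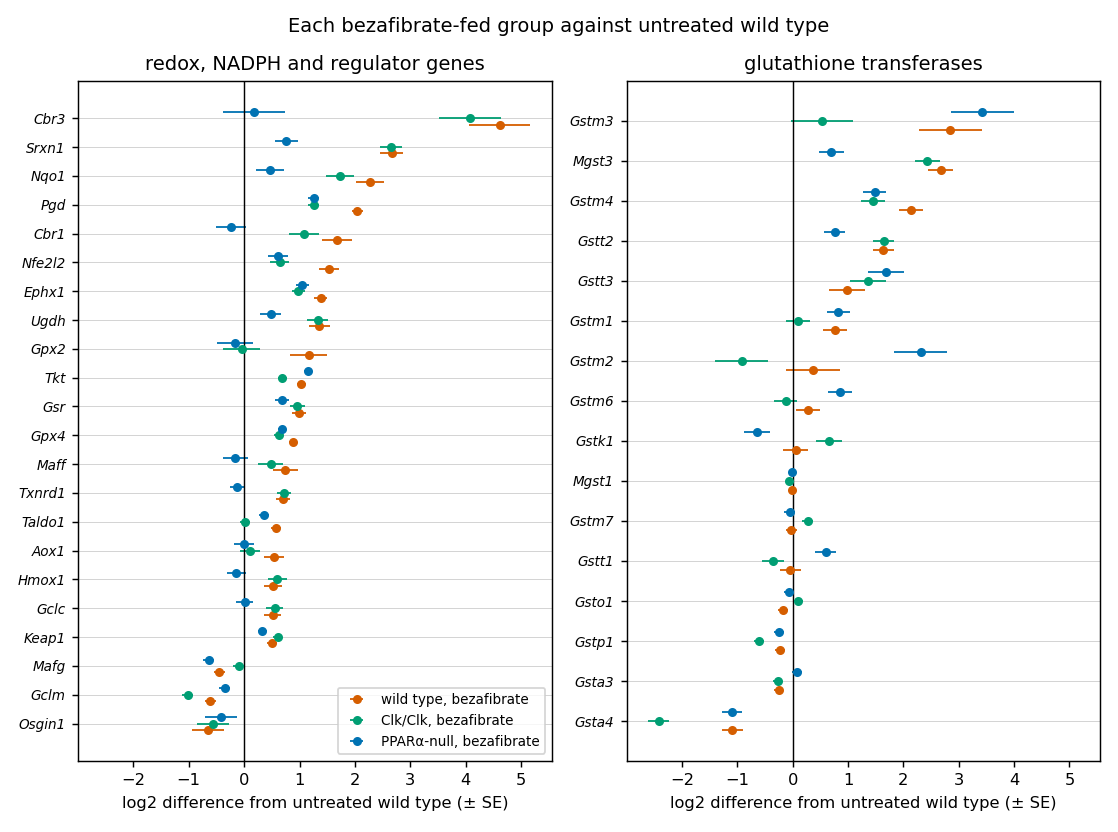
Log2 difference of each treated group from untreated wild type (horizontal axis, with SE bars from the limma fit) for 22 redox, NADPH and regulator genes (left) and 16 transferases (right), ordered by the wild-type drug difference; colours are the 3 bezafibrate-fed groups, which share the untreated mice. On the left the null points lie left of the wild-type points for Cbr3, Srxn1, Nqo1 and Cbr1 and right of the wild-type point for Tkt, while on the right the null points lie at or right of the wild-type points for Gstm3, Gstm2, Gstt3 and Gstt1 and left of them for Mgst3, Gstt2, Gstk1 and Gstm4.

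The contrast between the gene classes was also read mouse by mouse, as the median over each class of the departure from the untreated wild-type mean. For the 18 redox and NADPH genes this was 0.85, 1.09 and 1.06 in treated wild-type mice, 0.15, 0.37 and 0.34 in null mice and 0.74, 0.86 and 0.62 in Clk/Clk mice. For the 16 transferases it was -0.04, 0.42 and 0.30 in treated wild type, 0.35, 0.56 and 0.50 in null and 0.16, 0.17 and -0.13 in Clk/Clk mice. The redox medians of null mice were thus below those of every other treated mouse, whereas the transferase medians of null mice overlapped treated wild type and lay above all Clk/Clk mice. Over all 13598 genes the same median lay between -0.01 and 0.04 in every mouse.

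Genes outside the 42, from 3 further lists, gave the surroundings of the pathway. Me1, Gss, Cat, Sod1, Txn1, Idh1, Gsta1 and Gsta2 stand among both the other NRF2 targets and the other glutathione and peroxide enzymes. Sqstm1 stands among both the other NRF2 targets and the partners and brakes, so the counts of the lists are not independent. Of 23 tested of 28 other NRF2 targets 9 rose with bezafibrate in wild type and none fell, with a median of 0.50; the share of all genes was 12.8% higher and 7.77% lower. Me1, malic enzyme, which makes NADPH, rose by 2.92 and was lower in Clk/Clk than in treated wild-type mice (-1.08, adjusted p = 4.57e-04). The heme transporter Slc48a1 rose by 1.85 and was lower in null mice (-0.99), the efflux pump Abcc4 rose by 4.04 and was lower in null mice (-2.22), and Pir, pirin, rose by 1.60 and was lower in null mice (-0.60). Of 38 tested of 46 other glutathione and peroxide enzymes 6 rose and 3 fell, near those shares of all genes. Ggct and Oplah, 2 enzymes of the gamma-glutamyl cycle, rose by 2.40 and 1.57 and were lower in null mice (-1.83 and -1.27). Cth, which makes cysteine for glutathione, fell by 1.56 (adjusted p = 8.15e-07) and was higher than in treated wild type by 0.97 in null and by 1.44 in Clk/Clk mice (adjusted p = 2.41e-05). Of 13 tested of 15 partners and brakes of NRF2, 3 rose and none fell. Nfe2l1, a related factor, rose by 0.97 and was lower in null mice (-1.45), and Sqstm1, a scaffold that binds Keap1, rose by 0.79 and was lower in null mice (-0.70), whereas Maf (-0.49) and Dcaf11 (-0.41) were not called.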

How the data were processed

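The authors deposited log2 values for each probe set, obtained with RMA per the submitters' processing notes, with version and settings not given in the sources used here. RMA corrects background, equalises arrays and summarises probes, so differences of very dim and very bright genes are compressed. All 12 deposited columns were used, array medians lay between 5.45 and 5.50, and no array date is given in the labels. Of 45101 probe sets, 64 controls and those without exactly 1 platform symbol (932 with several, 9160 with none) were left out. A probe set had to lie at or above its array's 40th percentile on 3 or more arrays, and the brightest stood for its gene. Of the 42 genes, 19 had several probe sets with 1 symbol and 20 had 1. The 12 arrays were fitted with limma 3.58.1 in R 4.3.3 (lmFit, 4 group means, eBayes), and p-values were adjusted by Benjamini-Hochberg over 13598 genes. A call needed adjusted p under 0.05 and at least 1.5-fold. The number of mice, 3 per group, limits precision (8 residual degrees of freedom, median residual SD 0.124). The labels number 3 samples per group, which the series text counts as mice, so p-values measure the spread between these animals. Each of the 6 comparisons shares groups with others, so their counts are not independent. Genes called in at least 1 of 3 main comparisons are given per mouse, and from each other list at most 4 genes, those of smallest adjusted p in the wild-type drug comparison are named, with Ppara and Clock. The genes and lists were chosen with earlier results of these data known. Gene order and promoters came from RefSeq (GRCm38.p6). A planned comparison of protein sequences was not run, since no protein table was used here. The pipeline was tested on simulated data. The alternatives tried were other filters, probe set choices, scalings, eBayes settings, array weights, a replicate block, fewer arrays and other call rules.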

Additional observations from a re-analysis of the deposited data

How the results depend on the processing

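No difference of a tested gene reversed its direction among called values under any alternative. Of the genes called, 17 of 22 kept the call under every alternative other than the call rules for bezafibrate in wild type, 12 of 17 for null against treated wild type, 2 of 7 for Clk/Clk against treated wild type (Pgd and Gsta4), 11 of 18 and 15 of 22 for null and Clk/Clk against untreated wild type, and 15 of 18 for Clk/Clk against null. An alternative was skipped for a gene that had no probe set in it. Pgd, Txnrd1 and Gpx4, among others, have only probe sets with a letter suffix in their names. The alternative restricted to probe sets without such a suffix therefore did not check their calls. With the adjusted p alone, 4 genes fell with the drug in wild type, 3 were higher and 13 lower in Clk/Clk than in treated wild type, and 11 were lower in Clk/Clk than in null mice. At 2-fold, 1 fell with the drug, 1 was higher and 6 lower in null than in treated wild type, 3 were lower in Clk/Clk than in treated wild type, 7 were higher and 1 lower in null than in untreated wild type, 10 were higher in Clk/Clk than in untreated wild type, and 6 were higher and 3 lower in Clk/Clk than in null mice. In fits of the 2 groups alone, which have fewer samples, 1 gene was higher in null and 3 were lower in Clk/Clk than in treated wild type. Leaving out 1 mouse at a time gave 18 to 22 rises and 1 to 3 falls with the drug (1 without untreated mouse 2), 1 to 3 higher (1 without treated wild-type mouse 1 or null mouse 1) and 13 to 15 lower in null, and 0 to 1 higher (1 without treated wild-type mouse 1) and 4 to 9 lower in Clk/Clk than in treated wild type (4 without Clk/Clk mouse 3). It gave 11 to 16 higher and 2 to 3 lower in null and 16 to 19 higher and 2 to 3 lower in Clk/Clk than in untreated wild type, and 10 to 12 higher and 5 to 7 lower in Clk/Clk than in null mice. For these moves the cause was not tested. Shares of all genes were not counted under the alternatives of this section, so its counts have no background beside them. Deviations of same-numbered mice from their group means were weakly correlated (18 correlations from -0.0924 to 0.125, 3 over 0.1). The labels state no pairing by number, and weak correlations cannot exclude one. With replicate number as a block, 20 genes rose and 2 fell with the drug, 3 were higher and 15 lower in null and 0 higher and 6 lower in Clk/Clk than in treated wild type, 15 higher and 2 lower in null and 19 higher and 3 lower in Clk/Clk than in untreated wild type, and 10 higher and 7 lower in Clk/Clk than in null mice. Signal near background limits Slc7a11, low signal in untreated and null mice may limit Cbr3, and signal near the top of the scale limits Mgst1.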

Other observations

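Some genes of the surrounding lists stood out beyond the naming rule and were chosen after their values were seen. Ptgr1, a reductase of unsaturated carbonyls, read 7.16, 7.24 and 6.23 in Clk/Clk mice and 8.01, 8.71 and 8.59 in treated wild type, lower (-1.56, adjusted p = 0.0131), with a drug difference of 0.21 in wild type (adjusted p = 0.677). Txnip, the inhibitor of thioredoxin, read 9.77, 10.34 and 9.94 in null mice and 8.44, 9.29 and 8.96 in treated wild type, higher by 1.12 (adjusted p = 0.00141). Cbs, which feeds homocysteine into cysteine synthesis, fell by 0.67 with the drug (adjusted p = 0.00165) and was higher by 1.33 in Clk/Clk than in treated wild-type mice (adjusted p = 1.04e-04). Bach1, a repressor that competes with NRF2 for its elements, read 9.85, 10.22 and 10.69 in Clk/Clk mice and 9.84, 9.45 and 9.49 in treated wild type, higher by 0.66 (adjusted p = 0.0204). Aldh1a7 and Gpx7 rose by 1.07 and 1.39 in wild type and were lower in Clk/Clk mice (-0.93, adjusted p = 0.00375, and -0.73, adjusted p = 0.0239), with null differences of 0.31 and 0.50 that were not called.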
